A study of Mus musculus with 19 samples.

Results

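Bone marrow with Cdk8 and Cdk19 both targeted was set against marrow with Cdk19 alone targeted, to describe what adding the Cdk8 deletion changed where its paralog was already missing. The comparison rests on 4 DKO and 4 CDK19KO libraries of the 19 libraries in the series, and on the 13976 of 34432 genes whose mean reached 10 normalized counts over all 19 libraries. At that limit, Slc22a18 was just inside with a mean of 10.01 and Olfr312 just outside with 9.999. All mice were 8 weeks old, on the C57/BL6 background and untreated, and the tissue was whole marrow flushed from the leg bones. DKO mice carry Cdk8 flox/flox, the Vav-iCre transgene and the Cdk19 null allele. CDK19KO mice carry the Cdk19 null allele and the labels name no Cre for them, so the 2 genotypes share the loss of Cdk19 and differ in both the floxed Cdk8 gene and Cre. Further groups served to separate these differences: CDK8KO (Cdk8 flox/flox with Vav-iCre, n = 4), VAV (Vav-iCre alone, n = 4) and WT (n = 3). Vav-iCre drives Cre recombinase mainly in blood cells, so Cdk8 deletion is not aimed at bone and stromal cells that are flushed out with the marrow, while the Cdk19 null allele is not limited to a cell type. The labels do not say that each library came from a separate animal, so the p-values refer to the spread among libraries of a genotype, whatever its source.

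CDK8 and its paralog CDK19 are kinases that pair with cyclin C and sit, 1 at a time, in the kinase module of Mediator with MED12 and MED13 or their paralogs. Mediator carries signals from transcription factors bound at enhancers to RNA polymerase II, and the kinase module binds it reversibly and can both restrain and promote transcription. The kinases also phosphorylate transcription factors directly, among them SMAD and Notch proteins, which act in blood cell development and in inflammatory responses.

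The 4 DKO libraries held 14881701 to 26492553 reads assigned to genes, and the 4 CDK19KO libraries 17649591 to 24598256. A gene without reads in a library has a floor of 3 reads, which covers counting error only. Transcripts of skeletal muscle took 0.137% of the reads in DKO replicate 4 and 0.614% in CDK19KO replicate 4, against at most 0.00756% in every other library. Erythroid genes took 0.214% to 0.489% of reads in DKO and 0.667% to 1.64% in CDK19KO. The share reached 3.46% in VAV replicate 3 and 3.94% in CDK8KO replicate 1. List counts below that change by over 1.5 times without the 2 libraries that hold muscle transcripts, or with the summed erythroid level as a covariate, are given with those values.

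The targeted genes came first. Cdk8 (ENSMUSG00000029635; chromosome 5, 146231230 to 146302874 on GRCm38/mm10) had normalized counts, which are reads scaled for library depth, of 881, 806, 761 and 742 in DKO, against 972, 1102, 1332 and 1124 in CDK19KO. All 4 DKO libraries lay below all 4 CDK19KO libraries, and DKO held 70.4% of the CDK19KO level (exact two-sided permutation test, p = 0.0286, the smallest that 4 against 4 libraries can give). The fit across all genes did not call it (log2 fold change -0.50 ± 0.17, limma adjusted p = 0.151), and without DKO replicates 3 or 4 the exact p was 0.0571. The log2 fold change was -0.21 once the erythroid covariate described above was in the model. VAV held 80.0% of the WT level (exact two-sided permutation p = 0.171, n = 4 and 3). In CDK8KO, with the same floxed gene and Cre, the level was 102% of that in VAV (exact two-sided permutation p = 0.886). The exons that Cre removes are not given in the sources used here, and transcripts that keep the remaining exons would still be counted. Cdk8 RNA therefore does not measure how far the gene was deleted in these libraries. Cdk19 had 1185, 1202, 1109.5 and 1196 in DKO, against 1174, 1025, 1072 and 1092 in CDK19KO, groups that overlapped (exact two-sided permutation p = 0.0571). CDK19KO held 34.5% of the WT level of Cdk19, whose WT mean was 3157 (exact two-sided permutation p = 0.0286, n = 4 and 3). None of the 7 kinase module genes (Cdk8, Cdk19, Ccnc, Med12, Med12l, Med13 and Med13l) passed in limma. At an unadjusted p under 0.05, 1 did, and edgeR and DESeq2 called 0.

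Of the 13976 genes, 279 differed between DKO and CDK19KO (2.00%; limma on log2(normalized count + 1), Benjamini-Hochberg adjusted p under 0.05). More were higher in DKO (187 genes, 1.34%) than lower (92 genes, 0.658%), and 171 differed more than 2-fold. Values after ± are the SE for log2 fold changes and the SD for normalized counts, and fold changes on this scale understate the change of genes with few reads. The libraries of the 2 genotypes did not overlap for 274 of the 279 genes, where 2098 of all tested genes had no overlap. For 108 of the 279 genes the 4 DKO libraries lay outside all 15 libraries of the other genotypes, as they did for 1.42% of all tested genes. The 279 genes were called on these same libraries, so both counts of separation describe them and add no test. The count of genes that differed, 279 with all libraries, was 124 without DKO replicate 2. It was 119, 132 and 129 when CDK19KO replicate 2, 3 or 4 was the one left out. Without the 2 libraries that hold muscle transcripts it was 97.

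Genes that moved alike with Cre alone were then set apart, since VAV against WT differs in Vav-iCre and shares no library with the pair. A gene was set apart when VAV against WT had the same sign and either an unadjusted p under 0.05 or at least 0.5 times the log2 fold change. This took 98 of the 279 genes, 76 of them higher and 22 lower in DKO, and kept 181 genes, 111 higher and 70 lower. VAV against WT had the same sign for 76.7% of the 279 genes and for 60.6% of all tested genes. Its unadjusted p was under 0.05 for 14.8% of all tested genes. The rule took 40.6% of the higher genes and 23.9% of the lower ones. The median log2 fold change of the 111 higher genes kept was 1.22 in DKO against CDK19KO and 0.17 in VAV against WT, and that of the 70 lower genes was -1.26 and -0.08. For the 76 higher genes set apart it was 0.98 and 0.67, and for the 22 lower ones -1.34 and -0.74. The rule sorts genes by their change in VAV against WT, so the medians in that comparison describe the rule and test nothing. The number set apart depends on single libraries: it was 207 without VAV replicate 3, the VAV library with the highest erythroid share, 39 without DKO replicate 2, and 41, 44 and 41 when CDK19KO replicate 2, 3 or 4 was left out. VAV against WT itself passed 13 genes (0.0930%), 6 of which passed with the same sign in DKO against CDK19KO.

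**Figure D1:**
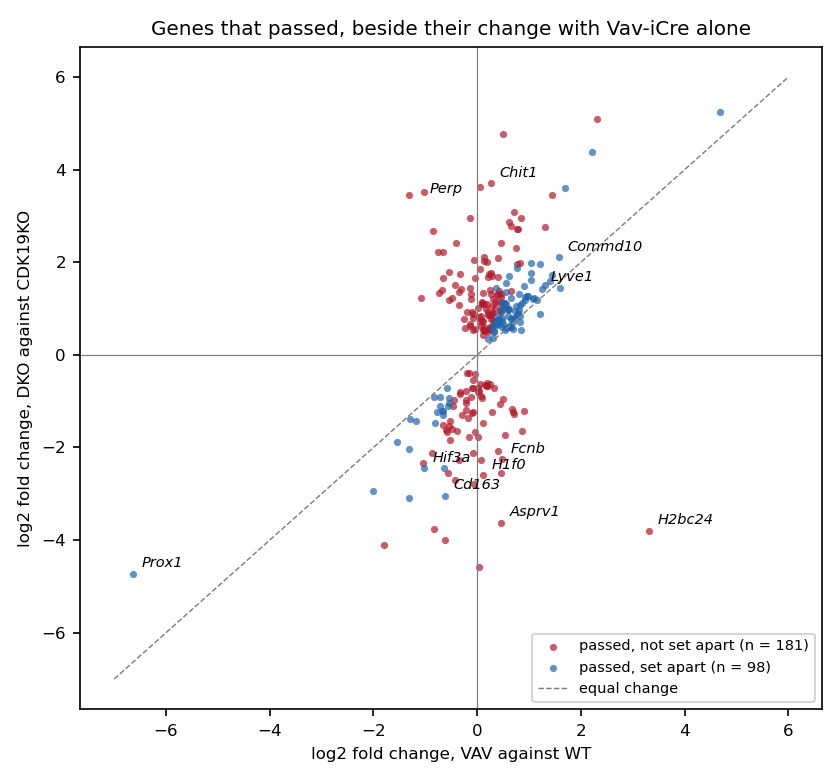
Each point is 1 of the 279 genes that passed in DKO against CDK19KO, with its log2 fold change in that comparison on the vertical axis and its log2 fold change in VAV against WT on the horizontal axis. Red points are the 181 genes kept and blue points the 98 set apart, and the dashed line marks an equal change in both. Chit1, Perp, H1f0 and Asprv1 sit near the vertical line at 0, and Commd10 and Prox1 stand far along both axes.

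Where Cdk19 was present, floxed Cdk8 was compared at equal Cre. CDK8KO against VAV, which share no library with the pair, passed 0 genes in limma (0% of those tested), with 1161 genes at an unadjusted p under 0.05. edgeR called 0 and DESeq2 called 1. CDK8KO replicate 1 and VAV replicate 3 held the highest erythroid shares (3.94% and 3.46%). This comparison was not repeated with a library left out or with the erythroid covariate. Of the 279 genes, 114 (40.9%) had the same sign in CDK8KO against VAV, as did 41.9% of all tested genes. Cre was then removed in 2 contrasts, the second of which also tests whether the effect differs between marrow without and with Cdk19. Taking VAV against WT off DKO against CDK19KO left 20 genes past the threshold (0.143%; 1098 at an unadjusted p under 0.05), 11 higher and 9 lower. Taking off CDK8KO against WT, which adds Cre and floxed Cdk8 to marrow with Cdk19, left 21 genes (0.150%; 1208 unadjusted), 13 higher and 8 lower. Both contrasts contain the DKO and CDK19KO libraries, so their calls are not independent of the 279. Without WT replicate 3 the counts were 11 and 10, and the second was 12 without CDK19KO replicate 2 and 11 without the libraries that hold muscle transcripts. Values in these contrasts are given for the genes below that passed in them.

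**Figure D2:**
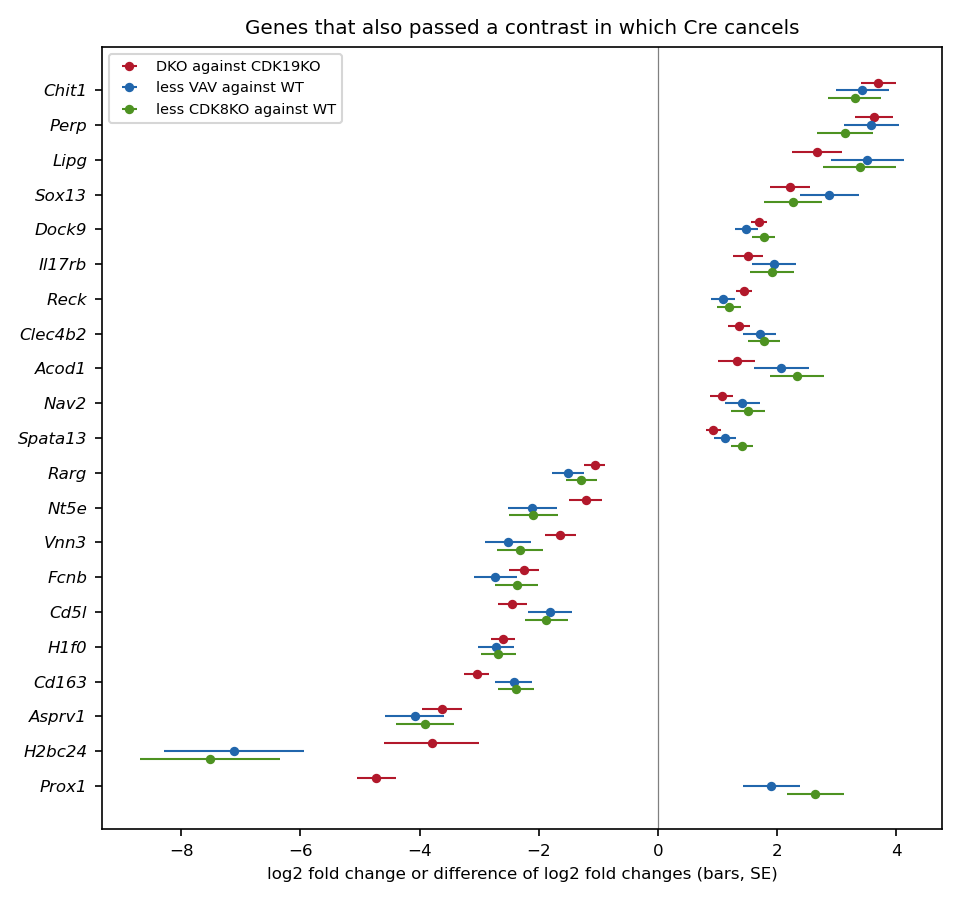
Each line is a gene that passed in DKO against CDK19KO and in at least 1 of the contrasts in which Cre cancels. Red points are log2 fold changes of DKO against CDK19KO, blue points the same less VAV against WT, green points the same less CDK8KO against WT, and bars are the SE. For Chit1, Perp, Asprv1 and H1f0 the 3 values lie close together, and for Prox1 the blue and green points lie above 0 while the red point is at -4.73.

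Genes of granulocytes and monocytes moved in both directions. Chit1, a secreted chitinase (ENSMUSG00000026450; chromosome 1, 134111242 to 134151540), had 583, 644, 299 and 574 in DKO, against 36.6, 41.6, 29.03 and 45.9 in CDK19KO. Every DKO library exceeded every library of the other genotypes, whose means were 99.4 in CDK8KO, 83.1 in VAV and 68.04 in WT. The log2 fold change was 3.70 ± 0.30 (adjusted p = 5.03e-07). The value was 3.43 (adjusted p = 0.001) with VAV against WT taken off and 3.30 (adjusted p = 0.0012) with CDK8KO against WT taken off. Asprv1, an aspartic protease known from skin and expressed by neutrophils (ENSMUSG00000033508; chromosome 6, 86628164 to 86629710), ran the other way, with 36.5, 36.4, 21.1 and 19.5 in DKO, against 537, 253, 378 and 279 in CDK19KO. Every DKO library lay below every other library, and the mean was 918 in CDK8KO, 965 in VAV and 682 in WT. The log2 fold change was -3.62 ± 0.34 (adjusted p = 3.14e-06), with -4.08 (adjusted p = 0.000872) and -3.91 (adjusted p = 0.000797) in the same 2 contrasts. Fcnb, ficolin B, a lectin of immature myeloid cells, fell to 906, 925, 428 and 781 in DKO, against 3824, 3862, 2914 and 3323 in CDK19KO (log2 fold change -2.25 ± 0.24, adjusted p = 2.62e-05). The DKO values were again below those of all 15 other libraries, and the 2 contrasts gave -2.73 (adjusted p = 0.001) and -2.37 (adjusted p = 0.00471). Vnn3, a member of the vanin family of pantetheinases, had 53.1, 98.7, 37.9 and 67.4 in DKO, against 228, 135, 187 and 228 in CDK19KO (log2 fold change -1.64 ± 0.26, adjusted p = 0.00194). The 2 groups did not overlap, and the contrasts gave -2.51 (adjusted p = 0.00596) and -2.31 (adjusted p = 0.0119), the second of which was lost without WT replicate 3 (adjusted p = 0.0742).

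The RefSeq sequences in front of the starts of these 4 genes (GRCm38.p6, 250 bases each, 5′ to 3′ on the gene's strand) are shown as examples. The genes are some of the myeloid genes that differed in all 3 contrasts. Capitals mark matches to TTGCNNAA, the core of the motif bound by C/EBP factors, which drive granulocyte development. Fcnb held 2 matches, starting 235 and 123 bases before the start, and Vnn3 held 1, 25 bases before the start, while the Chit1 and Asprv1 stretches held none. Cd163 and Clec4b2, described below, also differed in all 3 contrasts, and their stretches, which are not shown, held none either.
Fcnb, chr2:28084879-28085128, minus strand: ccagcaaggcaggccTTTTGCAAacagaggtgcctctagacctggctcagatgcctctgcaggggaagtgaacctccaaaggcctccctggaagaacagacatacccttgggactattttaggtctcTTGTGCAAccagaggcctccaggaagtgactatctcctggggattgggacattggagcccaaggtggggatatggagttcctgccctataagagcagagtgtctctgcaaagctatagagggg
Vnn3, chr10:23851212-23851461, plus strand: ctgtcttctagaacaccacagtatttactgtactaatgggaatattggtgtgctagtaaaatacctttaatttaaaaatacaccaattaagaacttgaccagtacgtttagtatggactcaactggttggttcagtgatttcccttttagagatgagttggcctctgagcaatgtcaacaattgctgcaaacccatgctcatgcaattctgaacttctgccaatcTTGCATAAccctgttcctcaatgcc
Asprv1, chr6:86627924-86628173, plus strand: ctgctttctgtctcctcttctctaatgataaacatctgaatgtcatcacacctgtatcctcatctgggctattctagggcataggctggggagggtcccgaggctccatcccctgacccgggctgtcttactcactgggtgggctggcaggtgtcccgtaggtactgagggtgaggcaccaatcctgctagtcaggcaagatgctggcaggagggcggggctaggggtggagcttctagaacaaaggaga
Chit1, chr1:134110992-134111241, plus strand: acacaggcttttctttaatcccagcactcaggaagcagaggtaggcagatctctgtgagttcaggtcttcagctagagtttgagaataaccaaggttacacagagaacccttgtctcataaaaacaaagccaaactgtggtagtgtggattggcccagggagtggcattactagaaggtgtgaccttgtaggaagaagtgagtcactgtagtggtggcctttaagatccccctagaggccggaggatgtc
Both strands were searched, and 9.55% of the 27025 promoters in the table held the motif. Among the genes not set apart that had a promoter in the table, it was in 17 of 85 higher genes and 8 of 46 lower genes. The motif of STAT factors, TTCNNNGAA, was in 6 of the 85 and 0 of the 46 promoters, against 7.18% of all, and was in none of the 4 stretches shown. Such matches describe letters and not binding.

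Of 5 stefins tested, small inhibitors of cysteine proteases expressed in the granulocyte lineage, 3 passed, all higher (1.34% of all tested genes did so). The list median was 1.99 where all tested genes had -0.01. Stfa1 had 1065, 763, 766 and 402 in DKO, against 119.5, 95.2, 86.2 and 111 in CDK19KO (log2 fold change 2.78 ± 0.30, adjusted p = 2.07e-05). Stfa3 had 483, 345, 298 and 246 in DKO, against 53.7, 69.7, 44.01 and 88.4 in CDK19KO (log2 fold change 2.41 ± 0.37, adjusted p = 0.00143). Neither gene overlapped between DKO and CDK19KO, and the means elsewhere were 189 in CDK8KO, 139 in VAV and 84.97 in WT for Stfa1. For Stfa3 they were 127, 70.5 and 51.8, and CDK8KO replicate 2, at 268, exceeded DKO replicate 4. The list median was 0.65 in VAV against WT and 1.16 with that comparison taken off. Stfa2 averaged 449 ± 216 in DKO and 104 ± 24.9 in CDK19KO (n = 4 each; log2 fold change 1.99 ± 0.49, adjusted p = 0.039), a call lost without DKO replicates 1, 2 or 3 or without any CDK19KO library (adjusted p = 0.0624 to 0.131). The list count was 2 without the libraries that hold muscle transcripts, and 2 with the erythroid covariate. The stefin genes are closely similar neighbours on chromosome 16, so reads may have been divided among them unevenly by the authors' quantification.

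The wider neutrophil programme was mostly not called. Of 23 mature neutrophil genes, 1 was higher and 1 lower (list median 0.00), and of 17 secondary and tertiary granule genes, 1 was higher and 1 lower (list median 0.21), where 2.00% of all tested genes passed. Both counts of 2 depend on single libraries: the mature list, whose higher gene is Fpr2, had 1 call with any DKO or CDK19KO library left out, and the granule list 0 to 2, with 0 without DKO replicates 1, 2 or 4 or CDK19KO replicates 2 or 4 and 1 without CDK19KO replicates 1 or 3. Without the libraries that hold muscle transcripts the counts were 1 and 0, as with the erythroid covariate. Camp, which encodes the antimicrobial peptide cathelicidin, had 11236, 12218, 13252 and 13026 in DKO, against 20903, 19541, 17363 and 24602 in CDK19KO (log2 fold change -0.72 ± 0.16, adjusted p = 0.0276), lost without DKO replicates 1, 2 or 4 or without CDK19KO replicates 1, 2 or 4 (adjusted p = 0.0534 to 0.105). Itgam, the integrin CD11b of myeloid cells, averaged 20844 ± 3025 in DKO and 12779 ± 1973 in CDK19KO (n = 4 each; log2 fold change 0.71 ± 0.17, adjusted p = 0.039) and moved alike in VAV against WT (0.70). Its call was lost without DKO replicates 1, 2 or 4 or without CDK19KO replicates 2, 3 or 4 (adjusted p = 0.0827 to 0.144). Of the 13 primary granule genes 0 passed in limma, edgeR or DESeq2, and 2 had an unadjusted p under 0.05. Klf5, a transcription factor of granulocytes and epithelia, averaged 2413 ± 209 in DKO and 1472 ± 66.5 in CDK19KO (n = 4 each; log2 fold change 0.71 ± 0.11, adjusted p = 0.00132), and was set apart with 0.34 in VAV against WT.

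**Figure D3:**
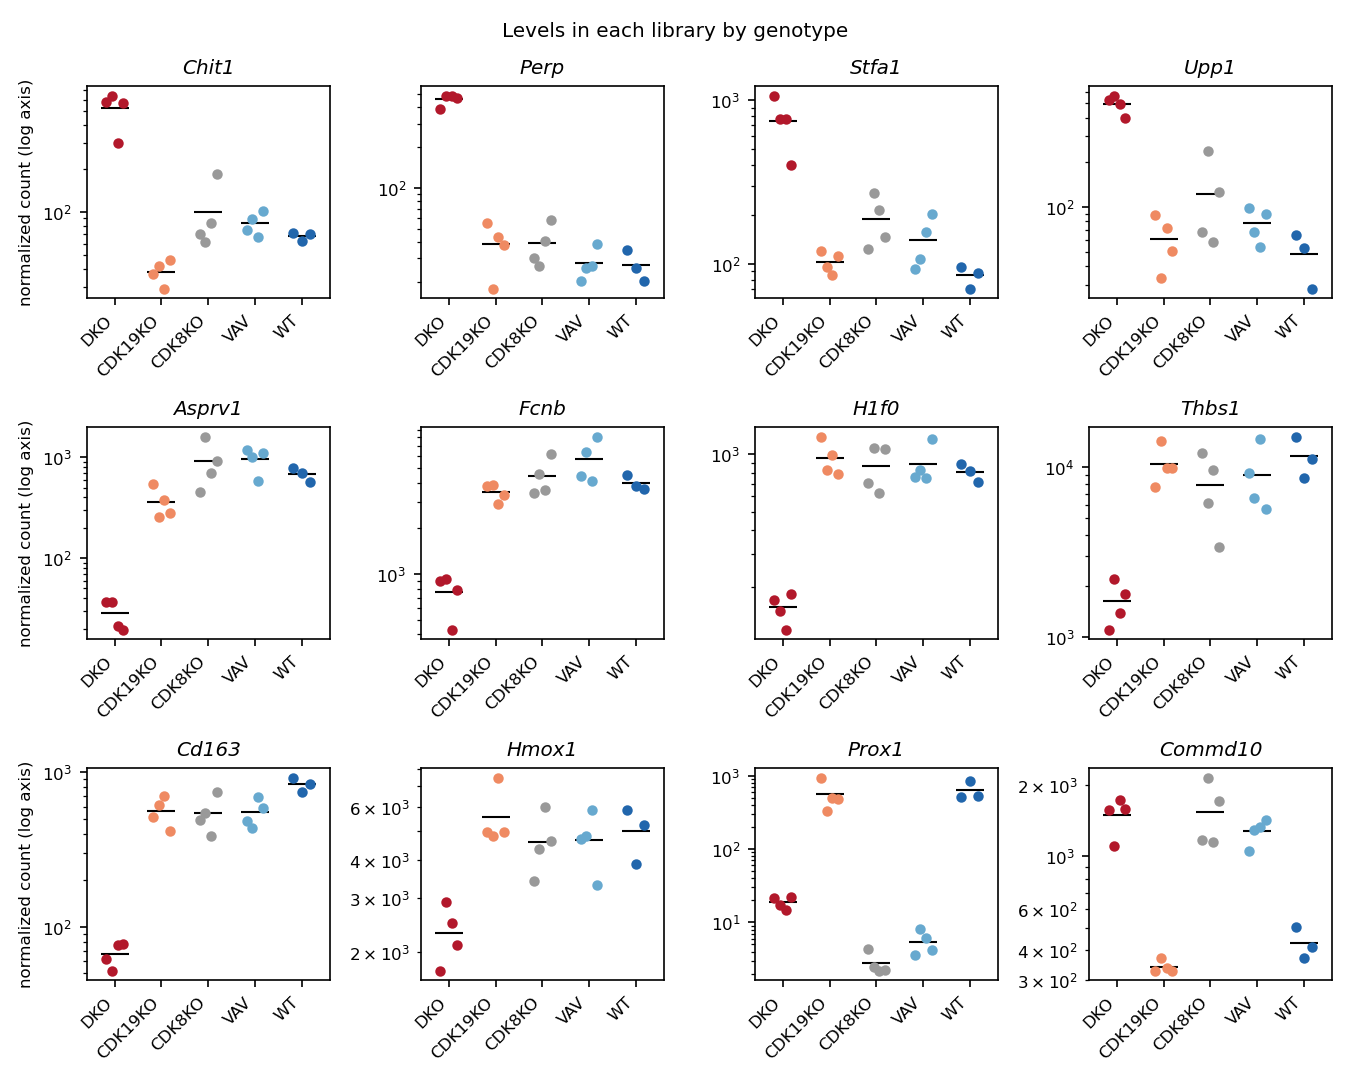
Normalized counts of 12 genes in each of the 19 libraries on log axes, with 1 point a library and a bar at the group mean. Chit1, Perp, Stfa1 and Upp1 are higher in the 4 DKO libraries than in all others, and Asprv1, Fcnb, H1f0, Thbs1, Cd163 and Hmox1 lower. Prox1 and Commd10 separate the 3 genotypes with Cre from CDK19KO and WT.

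Monocyte genes gave 1 higher and 1 lower call among 21 (list median 0.13), where 2.00% of all tested genes passed. There was 1 call in all without the libraries that hold muscle transcripts, and there were 4 with the erythroid covariate. Ly6c2, the surface antigen of inflammatory monocytes, had 66004, 90762, 47091 and 54820.0 in DKO, against 24742, 27199, 22115 and 22182 in CDK19KO, with no overlap (log2 fold change 1.39 ± 0.30, adjusted p = 0.0181). The call was lost without DKO replicate 2 or without CDK19KO replicates 3 or 4 (adjusted p = 0.0589 to 0.0754). Acod1, the enzyme that makes itaconate in activated macrophages, averaged 278 ± 78.7 in DKO and 114 ± 50.8 in CDK19KO (n = 4 each; log2 fold change 1.33 ± 0.31, adjusted p = 0.0305), and the genotypes overlapped. The call was lost without DKO replicates 1, 2 or 3 or without CDK19KO replicates 2, 3 or 4 (adjusted p = 0.0625 to 0.118). Its value less CDK8KO against WT was 2.34 (adjusted p = 0.0446), lost without DKO replicates 1, 2 or 3 or without CDK19KO replicates 2, 3 or 4 or without any CDK8KO library or without WT replicates 1 or 3 (adjusted p = 0.0595 to 0.185). Cxcl5, a chemokine that attracts neutrophils, had 3.32, 2.6, 4.21 and 0 in DKO, against 32.9, 52.7, 44.95 and 82.6 in CDK19KO, and all DKO libraries were below all CDK19KO libraries (log2 fold change -4.10 ± 0.83, adjusted p = 0.0138). Its call was lost without CDK19KO replicate 4 (adjusted p = 0.0502). Clec4b2, a C-type lectin receptor of myeloid cells, had 565, 736, 594 and 699.9 in DKO, against 185, 263, 286 and 282 in CDK19KO (log2 fold change 1.36 ± 0.18, adjusted p = 0.000349), with 1.71 (adjusted p = 0.00783) and 1.78 (adjusted p = 0.00471) in the contrasts without Cre. It was higher in every DKO library than in any other library.

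Of 13 basophil and mast cell genes tested, 5 passed, all higher (1.34% of all tested genes did so). None was set apart, and the list median was 0.62. Another 5 were higher and 3 lower without passing, the lower ones including the growth factor receptor gene Kit. Fcer1a, the alpha chain of the high-affinity IgE receptor (ENSMUSG00000005339; chromosome 1, 173221284 to 173227214), had 298, 366, 292 and 419.7 in DKO, against 84.1, 93.5, 95.5 and 150.4 in CDK19KO. Every DKO library exceeded all 15 others (log2 fold change 1.71 ± 0.21, adjusted p = 0.000147). Mcpt8, the basophil protease, had 1607, 1952, 2013 and 2825 in DKO, against 715, 773, 727 and 1085 in CDK19KO (log2 fold change 1.34 ± 0.23, adjusted p = 0.00428), and the means in other genotypes were 938 in CDK8KO, 920.2 in VAV and 846 in WT. The proteases Cpa3 and Prss34 and the receptor subunit Ms4a2 had log2 fold changes of 1.31, 1.10 and 0.83, with adjusted p of 0.0166, 0.0203 and 0.039, Ms4a2 being named after its values were seen. Their calls were lost without DKO replicates 2 or 4 or without CDK19KO replicates 1 or 3 (adjusted p = 0.0505 to 0.0734) for Cpa3, without DKO replicates 2 or 4 or without CDK19KO replicates 1, 2 or 3 (adjusted p = 0.0528 to 0.0899) for Prss34 and without DKO replicates 1, 2 or 4 or without any CDK19KO library (adjusted p = 0.0526 to 0.134) for Ms4a2. The DKO libraries were above all others for these 3 genes as well. The count of calls was between 2 and 5 when a library was left out, 2 without the libraries that hold muscle transcripts and 2 with the erythroid covariate. It was 2 without DKO replicates 2 or 4 or CDK19KO replicates 1 or 3, and 3 without CDK19KO replicate 2. In bulk tissue, a larger share of cells of a type and more RNA per cell cannot be told apart. Eosinophil genes had a list median of 0.58, but 0 of 13 passed in limma and edgeR and 4 in DESeq2, with 7 at an unadjusted p under 0.05.

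Resident macrophages take up dying cells and recycle iron. Of 23 of their genes, 10 passed, all lower in DKO (0.658% of all tested genes did so), with a list median of -0.56. Another 9 were lower and 4 higher without passing. Cd163, the receptor that clears haemoglobin bound to haptoglobin (ENSMUSG00000008845; chromosome 6, 124304656 to 124330527), had 62.2, 51.9, 75.8 and 77.9 in DKO, against 512, 612, 703 and 419 in CDK19KO. The DKO libraries were below every other library (log2 fold change -3.04 ± 0.21, adjusted p = 6.2e-08). It moved in the same direction in VAV against WT (-0.62, unadjusted p = 0.0125) and so was set apart, yet it passed with that change taken off, at -2.42 (adjusted p = 0.001), and less CDK8KO against WT, at -2.38 (adjusted p = 0.000797). Cd5l, a protein that macrophages secrete, had 48.1, 51.9, 32.6 and 64.4 in DKO, against 257, 226, 332 and 255 in CDK19KO (log2 fold change -2.44 ± 0.25, adjusted p = 9.27e-06), with -1.81 (adjusted p = 0.0515) and -1.87 (adjusted p = 0.0446) in the same contrasts. The second of these was lost without DKO replicates 1, 2 or 3 or without any CDK19KO library or without CDK8KO replicates 1, 3 or 4 or without any WT library (adjusted p = 0.0565 to 0.172). Hmox1, the enzyme that breaks down haem, had 1736, 2915, 2481 and 2115 in DKO, against 4943, 4799, 7466 and 4958 in CDK19KO (log2 fold change -1.26 ± 0.21, adjusted p = 0.00244). It was lower in each DKO library than in any other and was not set apart (-0.10 in VAV against WT).

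Mrc1, the mannose receptor, averaged 1202 ± 130.2 in DKO and 2853 ± 592 in CDK19KO (n = 4 each; log2 fold change -1.23 ± 0.18, adjusted p = 0.000721) and was set apart, since VAV against WT gave -0.78. Receptors for dying cells were also lower, with log2 fold changes of -1.10 for Timd4, -0.84 for Axl and -0.77 for Mertk (adjusted p = 0.00397, 0.00731 and 0.0142). Fcna (ficolin A), Siglec1 (sialoadhesin) and Hpgd, which degrades prostaglandins, had -1.21, -0.72 and -0.62 (adjusted p = 0.00749, 0.0377 and 0.0442). These 6 genes were named after their values were seen, to complete the list. Calls were lost without CDK19KO replicates 2 or 3 (adjusted p = 0.0562 to 0.0582) for Mertk, without DKO replicates 1, 2 or 3 or without CDK19KO replicates 1, 2 or 3 (adjusted p = 0.0564 to 0.13) for Siglec1 and without any DKO library or without CDK19KO replicates 2, 3 or 4 (adjusted p = 0.0543 to 0.135) for Hpgd. In all, 5 of the 10 lower genes were set apart (Cd163, Cd5l, Mrc1, Timd4 and Fcna). The count was 8 without the libraries that hold muscle transcripts and 7 to 10 with any DKO or CDK19KO library left out. With the summed erythroid level as a covariate it was 6. The whole list took 0.117% to 0.174% of reads in DKO and 0.166% to 0.229% in CDK19KO, ranges that overlap. In VAV and CDK8KO it took 0.126% to 0.168% and 0.120% to 0.159%, both within the DKO range, and in WT 0.162% to 0.189%. The list median was -0.26 in VAV against WT and -0.45 with that comparison taken off.

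**Figure D4:**
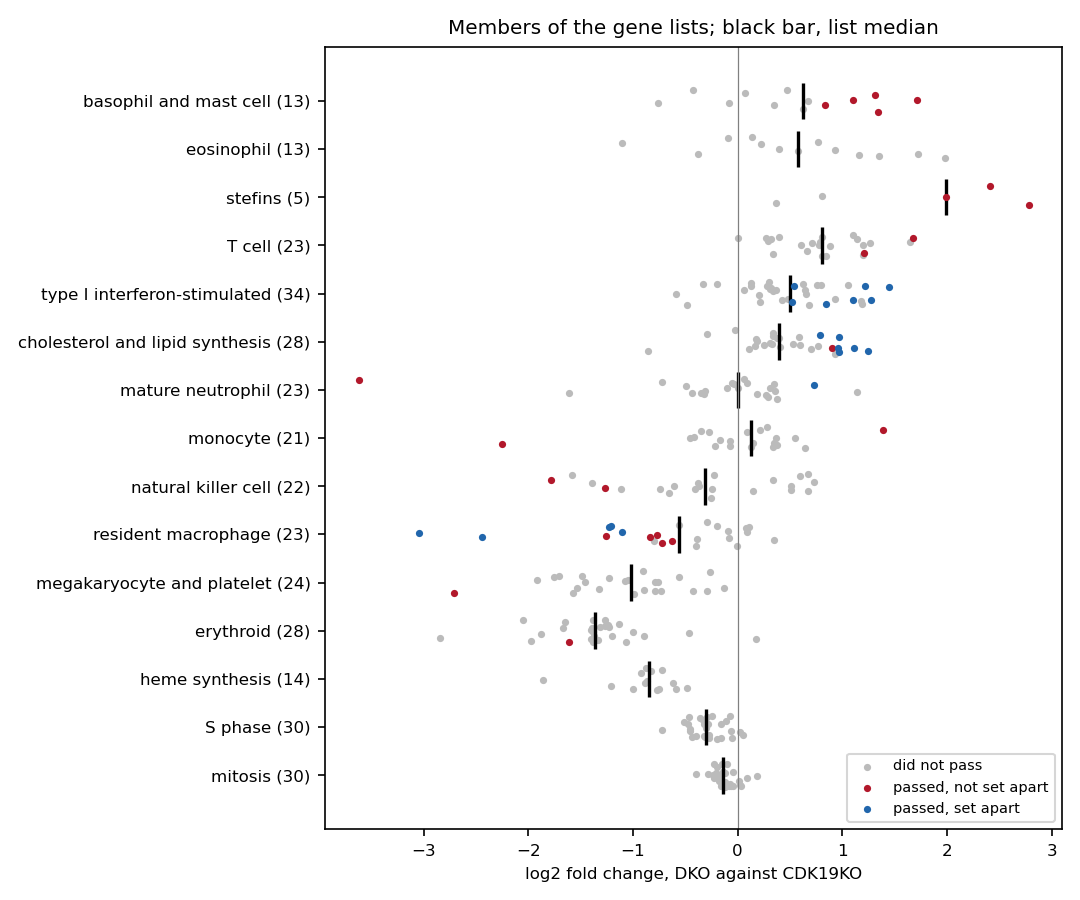
Log2 fold changes of DKO against CDK19KO for the members of 15 gene lists, 1 point a gene, with the number tested in brackets and a black bar at the list median. Grey points did not pass, red points passed and were not set apart, and blue points passed and were set apart. The medians run from -1.36 for erythroid genes to 1.99 for stefins.

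Red cell and platelet genes were lower as lists, with few single calls. Of 28 erythroid genes, 27 had a negative log2 fold change and the list median was -1.36. Car1, a carbonic anhydrase of red cell precursors, was the 1 member that passed, with 2463, 1839, 1286 and 1739 in DKO, against 4400.1, 7403, 5363 and 5084 in CDK19KO (log2 fold change -1.61 ± 0.32, adjusted p = 0.0112), and its call was lost without CDK19KO replicate 2 (adjusted p = 0.0518). The list count was 0 without the libraries that hold muscle transcripts and 0 with the erythroid covariate. At an unadjusted p under 0.05 18 members were lower. All 14 haem synthesis genes were lower, with a median of -0.85, and 0 passed in limma, edgeR or DESeq2 (3 unadjusted). All 24 megakaryocyte and platelet genes were lower, with a median of -1.02, and the list took 0.0684% to 0.106% of reads in DKO and 0.125% to 0.338% in CDK19KO. Thbs1, the platelet and matrix glycoprotein thrombospondin 1 (ENSMUSG00000040152; chromosome 2, 118111876 to 118127133), was the 1 that passed, with 1101, 2192, 1391 and 1799 in DKO, against 7698, 14350.0, 9949 and 9962 in CDK19KO (log2 fold change -2.71 ± 0.35, adjusted p = 0.000246). Its DKO values were below those of all 15 other libraries, and VAV against WT gave -0.43. VAV against WT had list medians of -0.62 for erythroid genes and 0.04 for platelet genes. Pklr, the pyruvate kinase of liver and red cells, averaged 348 ± 139 in DKO and 931 ± 206 in CDK19KO (n = 4 each; log2 fold change -1.47 ± 0.34, adjusted p = 0.0291), was set apart, and was lost without DKO replicates 2, 3 or 4 or without any CDK19KO library (adjusted p = 0.05 to 0.109). The erythroid shares of reads did not overlap between DKO (0.214%, 0.307%, 0.398% and 0.489%) and CDK19KO (0.667%, 1.64%, 1.38% and 1.11%), and their part in other results was not tested beyond the covariate, with which 128 of 13976 genes passed in place of 279. Low shares were not particular to DKO: VAV replicates 1, 2 and 4 had 0.327%, 0.169% and 0.319%, and VAV replicate 3 had 3.46%. CDK8KO ranged from 0.507% to 3.94% and WT from 0.715% to 1.18%.

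**Figure D5:**
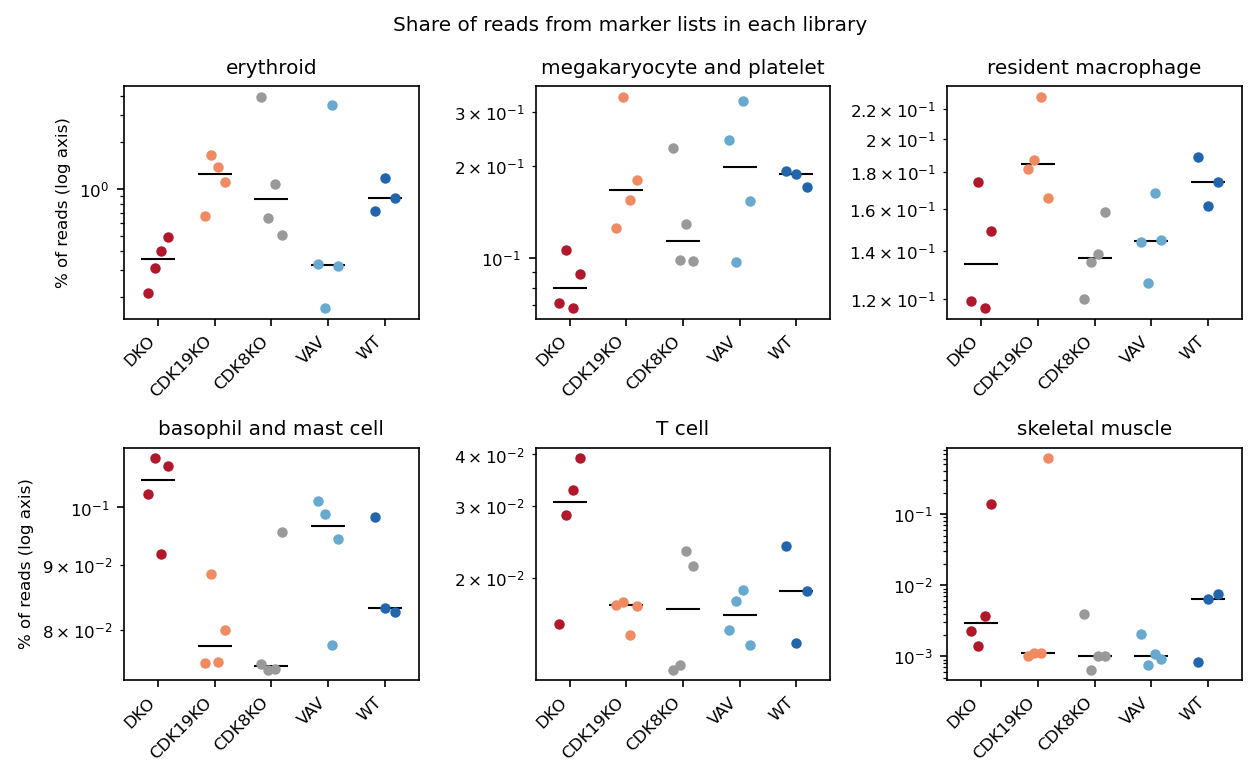
Percent of each library's reads from 6 lists of marker genes, on log axes, with 1 point a library and a bar at the group median. Erythroid and platelet shares are lower in all 4 DKO libraries than in the 4 CDK19KO libraries, T cell shares are higher in 3 of 4 DKO libraries, and muscle transcripts stand out in DKO replicate 4 and CDK19KO replicate 4.

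T cell genes were higher as a list: all 23 tested members had a positive log2 fold change, with a median of 0.81. Only Cd8a and Cd28 passed, where 1.34% of all tested genes passed as higher. Cd8a, the CD8 alpha chain of cytotoxic T cells, had 207, 487, 542 and 564 in DKO, against 143, 121, 114 and 148 in CDK19KO (log2 fold change 1.67 ± 0.34, adjusted p = 0.0138), lost without DKO replicate 2 (adjusted p = 0.0507). Cd28, the co-stimulatory receptor, had 227, 377, 343 and 364 in DKO, against 140.2, 113, 147 and 158 in CDK19KO (log2 fold change 1.21 ± 0.23, adjusted p = 0.00832). DKO replicate 1 was the lowest DKO library for both genes, and its T cell share of reads, 0.0154%, lay among those of CDK19KO (0.0145% to 0.0175%) while the other 3 were 0.0284% to 0.0392%. Without it 9 members passed. Without DKO replicate 2, 1 did. The median was -0.26 in VAV against WT, and 0 of the members that passed were set apart. Without the libraries that hold muscle transcripts 0 members passed, and with the erythroid covariate 1 did. Of 22 natural killer cell genes, 2 were lower, Klra4 (log2 fold change -1.78 ± 0.38, adjusted p = 0.017) and the activating receptor Ncr1 (log2 fold change -1.27 ± 0.30, adjusted p = 0.0357). Their calls were lost without DKO replicate 2 or without CDK19KO replicate 2 (adjusted p = 0.0579 to 0.07) for Klra4 and without DKO replicates 1 or 2 or without any CDK19KO library (adjusted p = 0.0723 to 0.0951) for Ncr1. The list count was 1 without the libraries that hold muscle transcripts and 0 with the erythroid covariate. Among all tested genes, 0.658% passed as lower. Klra4 belongs to a cluster of similar receptor genes whose reads can be misassigned.

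Of 18 plasma cell genes, 2 passed, both higher, where 1.34% of all tested genes did so. The list count was 0 without the libraries that hold muscle transcripts and 1 with the erythroid covariate. Ighg1, the constant region of IgG1, averaged 754 ± 285 in DKO and 176 ± 96.2 in CDK19KO (n = 4 each; log2 fold change 2.22 ± 0.53, adjusted p = 0.0363), lost without DKO replicates 1, 2 or 4 or without CDK19KO replicates 1, 2 or 3 (adjusted p = 0.0676 to 0.12). Xbp1, a transcription factor of plasma cells and of the unfolded protein response, had 4234, 4437, 3948 and 3958 in DKO, against 2759.8, 2975, 2922 and 2913 in CDK19KO (log2 fold change 0.52 ± 0.11, adjusted p = 0.02), lost without DKO replicate 2 or without any CDK19KO library (adjusted p = 0.0562 to 0.0754). Of 17 B cell precursor genes and 22 mature B cell genes 0 passed by limma, edgeR or DESeq2, with 1 and 3 at an unadjusted p under 0.05.

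Single genes of chromatin and transcription control stood out. H1f0, the linker histone H1.0 of cells that have stopped dividing (ENSMUSG00000096210; chromosome 15, 79028450 to 79030504), had 171, 151, 120.0 and 186 in DKO, against 1234, 826, 987 and 791 in CDK19KO. Every DKO library lay below all 15 others, whose group means were 870.0 in CDK8KO, 884 in VAV and 805 in WT. The log2 fold change was -2.60 ± 0.20 (adjusted p = 4.48e-07), and the contrasts without Cre gave -2.71 (adjusted p = 0.000451) and -2.68 (adjusted p = 0.000277). The 5 other linker histone genes tested did not pass in limma, although all 6 had a negative value. H2bc24, a histone H2B gene, had 481, 19.04, 11.6 and 35.97 in DKO, against 894, 448, 435 and 947 in CDK19KO. DKO replicate 1 lay among the CDK19KO libraries and far above the other 3, and the means were 663 in CDK8KO, 533 in VAV and 44.9 in WT. It passed in DKO against CDK19KO (log2 fold change -3.79 ± 0.80, adjusted p = 0.0169), a call lost without DKO replicates 2 or 3 or without CDK19KO replicate 4 (adjusted p = 0.0588 to 0.069). The contrasts gave -7.11 (adjusted p = 0.0114) and -7.52 (adjusted p = 0.00611). All 3 calls were lost in edgeR and without the libraries that hold muscle transcripts. Sox13, an SRY-box transcription factor, had 382, 316, 395 and 462 in DKO, against 70.7, 109, 53.4 and 110.2 in CDK19KO (log2 fold change 2.22 ± 0.33, adjusted p = 0.00103) and was above all other libraries. With VAV against WT taken off it had 2.88 (adjusted p = 0.014), lost without WT replicates 2 or 3 (adjusted p = 0.0548 to 0.0668). Mecom, a transcription factor of blood stem cells, had 13.3, 10.4, 7.37 and 11.99 in DKO, against 96.3, 22.9, 29.03 and 135 in CDK19KO (log2 fold change -2.27 ± 0.47, adjusted p = 0.0157), lost without CDK19KO replicates 1 or 4 (adjusted p = 0.0554 to 0.0593). It was the only call in limma among 21 stem and progenitor cell genes, and was absent without the libraries that hold muscle transcripts. Rarg, the retinoic acid receptor gamma, was named after its values were seen, and had 207, 147, 153 and 149.9 in DKO, against 388, 307, 342 and 329 in CDK19KO (log2 fold change -1.06 ± 0.18, adjusted p = 0.00351). With VAV against WT taken off it had -1.50 (adjusted p = 0.0203), lost without DKO replicate 3 or without CDK19KO replicate 1 or without VAV replicates 3 or 4 or without WT replicates 1 or 3 (adjusted p = 0.0521 to 0.0889).

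Enzymes and membrane proteins followed. Perp, a membrane protein of cell junctions and a p53 target (ENSMUSG00000019851; chromosome 10, 18845020 to 18857073), had 384, 484, 485 and 468 in DKO, against 54.9, 17.8, 43.1 and 37.9 in CDK19KO. The other genotypes averaged 38.8 in CDK8KO, 27.7 in VAV and 26.7 in WT, so that the 4 DKO libraries stood alone. The log2 fold change was 3.63 ± 0.32 (adjusted p = 1.41e-06), with 3.59 (adjusted p = 0.001) and 3.14 (adjusted p = 0.0047) in the contrasts without Cre. Of the 27 p53 targets tested, Perp and Pmaip1 passed (list median 0.10), where 2.00% of all tested genes did. Without the libraries that hold muscle transcripts or with the erythroid covariate, 1 passed. Pmaip1, which encodes the cell death protein NOXA, had a log2 fold change of 1.06 and was set apart with 0.76 in VAV against WT. Upp1, which breaks down uridine, had 530.4, 564, 493 and 397 in DKO, against 89.03, 33.1, 72.1 and 50.5 in CDK19KO (log2 fold change 3.08 ± 0.39, adjusted p = 0.000184), all above the other 15 libraries. Nt5e (CD73), which makes adenosine, had 53.9, 102, 151 and 144 in DKO, against 224, 236, 242 and 274 in CDK19KO (log2 fold change -1.21 ± 0.28, adjusted p = 0.0279), lost without DKO replicates 1 or 2 or without any CDK19KO library (adjusted p = 0.0548 to 0.0877). Of 18 genes of nucleotide and adenosine metabolism, 2 were higher and 1 lower, where 2.00% of all tested genes passed. The list count was 1 without the libraries that hold muscle transcripts or with the erythroid covariate. In the contrasts without Cre, Nt5e had -2.11 (adjusted p = 0.0434), lost without DKO replicate 2 or without any CDK19KO library or without VAV replicates 1 or 2 or without any WT library (adjusted p = 0.0613 to 0.178), and -2.09 (adjusted p = 0.0446), lost without DKO replicate 2 or without any CDK19KO library or without any CDK8KO library or without any WT library (adjusted p = 0.0638 to 0.185). Lipg, endothelial lipase, had 1160.3, 1334, 1129.5 and 559 in DKO, against 268, 138, 141 and 110.2 in CDK19KO (log2 fold change 2.67 ± 0.42, adjusted p = 0.0015). Each DKO library exceeded the other 15, and VAV against WT ran the other way (-0.84). The contrasts gave 3.52 (adjusted p = 0.0172), lost without WT replicates 1 or 3 (adjusted p = 0.0635 to 0.0819), and 3.39 (adjusted p = 0.0248), lost without DKO replicates 1, 2 or 3 or without CDK19KO replicates 2, 3 or 4 or without WT replicates 1 or 3 (adjusted p = 0.0526 to 0.121).

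Regulators of the cytoskeleton and the cell surface were among the genes called in each of the 3 contrasts. Dock9, Spata13 and Reck, which were called in each, and Farp1, which was not, are named here after their values were seen, as was Clec4b2 above. The calls of Dock9, Spata13 and Clec4b2 held in all 3 contrasts with every library of a contrast left out in turn. Dock9, an exchange factor that activates the GTPase Cdc42 (ENSMUSG00000025558; chromosome 14, 121542046 to 121797837), had 1448, 1513, 1211 and 1178 in DKO, against 474, 343, 382 and 457 in CDK19KO. All DKO libraries were above the other 15 (log2 fold change 1.69 ± 0.13, adjusted p = 4.53e-07), and the contrasts gave 1.49 (adjusted p = 0.001) and 1.78 (adjusted p = 0.000277). Its neighbour Farp1 was the only other call among the 25 genes tested within 5 Mb of Dock9, where 2.00% of all tested genes passed. The call of Farp1 was lost without the libraries that hold muscle transcripts or with the erythroid covariate. Farp1 did not pass with CDK8KO against WT taken off (limma adjusted p = 0.428). Spata13, a guanine nucleotide exchange factor of another family, had 2583, 2843, 2471 and 2383 in DKO, against 1492, 1270.2, 1249 and 1375 in CDK19KO (log2 fold change 0.93 ± 0.12, adjusted p = 0.000278), with 1.13 (adjusted p = 0.00826) and 1.42 (adjusted p = 0.000797). Reck, a membrane-bound inhibitor of metalloproteinases, had 992, 1146, 959 and 842 in DKO, against 305, 334, 391 and 417 in CDK19KO (log2 fold change 1.44 ± 0.14, adjusted p = 3.46e-06). It was set apart, with 0.36 in VAV against WT, and still passed with that taken off, at 1.09 (adjusted p = 0.0281). That call was lost without DKO replicates 1, 2 or 3 or without CDK19KO replicates 1 or 2 or without VAV replicates 2 or 3 or without any WT library (adjusted p = 0.0503 to 0.121). Less CDK8KO against WT, Reck had 1.20 (adjusted p = 0.0119), lost without WT replicate 3 (adjusted p = 0.0742). Il17rb, a receptor chain for interleukin 25, had 199, 131, 274 and 243 in DKO, against 68.3, 56.1, 90.8 and 72.3 in CDK19KO (log2 fold change 1.51 ± 0.25, adjusted p = 0.0025). The contrast less VAV against WT gave 1.95 (adjusted p = 0.036), lost without DKO replicates 1, 3 or 4 or without CDK19KO replicates 1, 2 or 4 or without VAV replicates 1, 2 or 4 or without any WT library (adjusted p = 0.0541 to 0.103). Less CDK8KO against WT it had 1.92 (adjusted p = 0.0441), lost without DKO replicates 1, 3 or 4 or without CDK19KO replicates 1, 2 or 4 or without CDK8KO replicates 2, 3 or 4 or without any WT library (adjusted p = 0.0522 to 0.115). The next 3 genes were not called in the contrasts without Cre. Trpv4, a calcium channel, averaged 14.8 ± 7.4 in DKO and 71.4 ± 16.4 in CDK19KO (n = 4 each; log2 fold change -2.27 ± 0.37, adjusted p = 0.00209). Muc20, a mucin, had 37.3, 68.4, 44.2 and 148 in DKO, against 6.1, 7.65, 5.62 and 14.9 in CDK19KO (log2 fold change 2.86 ± 0.48, adjusted p = 0.00314). Dmwd had 43.99, 39.8, 68.4 and 55.5 in DKO, against 162, 144, 186 and 218 in CDK19KO (log2 fold change -1.77 ± 0.24, adjusted p = 0.00038) and was below all other libraries.

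Further genes with large changes passed in DKO against CDK19KO but lost their call when 1 library was left out. Rnase2a, a ribonuclease of the eosinophil family with close paralogs, averaged 151 ± 41.5 in DKO and 14.1 ± 8.33 in CDK19KO (n = 4 each; log2 fold change 3.46 ± 0.71, adjusted p = 0.0151), lost without DKO replicate 2 or without CDK19KO replicate 4 (adjusted p = 0.0564 to 0.0589). Adamdec1, a secreted metalloproteinase, had 29.9, 33.8, 253 and 80.9 in DKO, against 15.9, 2.55, 3.75 and 4.59 in CDK19KO (log2 fold change 3.44 ± 0.83, adjusted p = 0.0367). DKO replicate 3 was the highest, and the call was lost without DKO replicates 2, 3 or 4 or without CDK19KO replicates 2, 3 or 4 (adjusted p = 0.0579 to 0.125). The log2 fold change of the sodium channel gene Scn3a was 2.96, lost without DKO replicates 2, 3 or 4 or without CDK19KO replicates 1, 2 or 3 (adjusted p = 0.0555 to 0.101). That of Adam3 was 2.76, lost without DKO replicates 1, 2 or 3 or without CDK19KO replicates 1, 2 or 4 (adjusted p = 0.0523 to 0.0869), and that of Plekha6 was 2.43, lost without DKO replicates 1 or 4 or without CDK19KO replicates 1, 3 or 4 (adjusted p = 0.05 to 0.0843). Among the lower genes, the log2 fold change of the Golgi GTPase gene Rab30 was -2.33, lost without DKO replicates 1 or 2 or without CDK19KO replicates 2 or 4 (adjusted p = 0.0614 to 0.0872). That of the sulphate transporter gene Slc26a1 was -1.83, lost without DKO replicates 2 or 3 or without CDK19KO replicate 2 (adjusted p = 0.0524 to 0.0633). That of Reep6 was -1.67, lost without DKO replicates 2, 3 or 4 or without CDK19KO replicates 1, 2 or 3 (adjusted p = 0.0602 to 0.105), and that of the ubiquitin ligase gene Mid1 was -2.13, lost without DKO replicates 1, 2 or 3 or without any CDK19KO library (adjusted p = 0.0554 to 0.127).

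Of 34 genes stimulated by type I interferon, 7 passed, all higher (1.34% of all tested genes did so). The list median was 0.50, and all 7 were set apart. In VAV against WT the list median was 0.37, and with that comparison taken off it was 0.11. Zbp1, a sensor of nucleic acids, had 733, 872, 738 and 716 in DKO, against 499, 324, 338 and 292 in CDK19KO (log2 fold change 1.10 ± 0.22, adjusted p = 0.0137), lost without DKO replicate 2 or without CDK19KO replicates 2 or 4 (adjusted p = 0.0509 to 0.0535). Ifit1, which binds viral RNA, had a log2 fold change of 1.45 in DKO against CDK19KO and 1.59 in VAV against WT. Its call was lost without DKO replicates 1 or 2 or without CDK19KO replicates 3 or 4 (adjusted p = 0.0627 to 0.0842). The count of 7 was 14 without CDK19KO replicate 1, 2 without DKO replicates 1, 3 or 4, 1 without CDK19KO replicates 2 or 3, and 0 without DKO replicate 2 or CDK19KO replicate 4. It was 0 without the libraries that hold muscle transcripts and 0 with the erythroid covariate. Of 17 interferon-induced GTPase genes, 3 passed, all higher (list median 0.35), where 1.34% of all tested genes did so. This count was 0 without DKO replicate 2 or CDK19KO replicate 4 and 1 without DKO replicate 4 or CDK19KO replicates 2 or 3. It was 0 without the libraries that hold muscle transcripts and 1 with the erythroid covariate. Gbp2 was not set apart and had 681, 989, 602 and 788 in DKO, against 427, 338, 384 and 261 in CDK19KO (log2 fold change 1.12 ± 0.22, adjusted p = 0.0138), lost without DKO replicate 2 or without CDK19KO replicate 4 (adjusted p = 0.0554 to 0.0579).

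Genes of cholesterol synthesis and uptake had a similar pattern, with 7 of 28 higher (1.34% of all tested genes) and 0 lower. Of the 7, 6 were set apart, and the list median was 0.40. The medians were 0.37 in VAV against WT and 0.06 with that taken off. Msmo1, an enzyme of cholesterol synthesis, had 1345, 1788, 1293 and 1254 in DKO, against 727, 729, 582 and 888 in CDK19KO (log2 fold change 0.96 ± 0.16, adjusted p = 0.00222; 0.72 in VAV against WT). Insig1, which restrains the pathway when sterols are plentiful, was the member not set apart and had 899, 1111, 846 and 803 in DKO, against 561, 518, 480.4 and 395 in CDK19KO (log2 fold change 0.90 ± 0.15, adjusted p = 0.0025). Cyp51, the sterol demethylase, averaged 625 ± 40.4 in DKO and 326 ± 77.2 in CDK19KO (n = 4 each; log2 fold change 0.97 ± 0.17, adjusted p = 0.00395). The count was 4 to 7 with a library left out: 4 without DKO replicates 1 or 2 or CDK19KO replicates 2, 3 or 4. It was 3 without the libraries that hold muscle transcripts and 3 with the erythroid covariate.

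Single members of signalling lists passed. Jag1, a Notch ligand, had 249, 262, 199 and 232 in DKO, against 92.7, 96.9, 112 and 124 in CDK19KO (log2 fold change 1.14 ± 0.17, adjusted p = 0.00132) and was set apart (0.49 in VAV against WT). Tgfbr1, a receptor for TGF-beta, averaged 3131 ± 209 in DKO and 2169.9 ± 136 in CDK19KO (n = 4 each; log2 fold change 0.53 ± 0.12, adjusted p = 0.0268), with 0.53 in VAV against WT, and was lost without DKO replicates 2 or 3 or without any CDK19KO library (adjusted p = 0.0549 to 0.105). Of 25 NF-kappaB and inflammatory genes, 2 passed, both higher, where 1.34% of all tested genes did so. These were the chemokine gene Ccl3 (log2 fold change 1.31 ± 0.28, adjusted p = 0.0175) and Il1rn, the antagonist of interleukin 1 (log2 fold change 0.78 ± 0.18, adjusted p = 0.0304). They were lost without DKO replicates 2, 3 or 4 or without CDK19KO replicates 2 or 3 (adjusted p = 0.0509 to 0.0731) for Ccl3 and without DKO replicates 2, 3 or 4 or without any CDK19KO library (adjusted p = 0.0537 to 0.109) for Il1rn, so the list count was 0 without DKO replicates 2, 3 or 4 or CDK19KO replicates 2 or 3, and 1 without CDK19KO replicates 1 or 4. It was 0 without the libraries that hold muscle transcripts and 1 with the erythroid covariate. Of 17 STAT and SOCS genes 0 passed by limma, edgeR or DESeq2, with 1 at an unadjusted p under 0.05. Genes of S phase had a median of -0.30 and of mitosis -0.14, each with 0 of 30 passing in limma and edgeR. DESeq2 called 1 and 0 of them, and 6 and 0 had an unadjusted p under 0.05.

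Other genes set apart had large changes with Cre alone. Commd10, of a family of trafficking and copper transport regulators (ENSMUSG00000042705; chromosome 18, 46958816 to 47234284), had 1565, 1103, 1725 and 1584 in DKO, against 328, 373, 336 and 328 in CDK19KO (log2 fold change 2.11 ± 0.18, adjusted p = 1.36e-06). VAV had 1055, 1288, 1332 and 1425, against 502, 371 and 416 in WT (1.57), and the value with that taken off was 0.54 (adjusted p = 0.638). Prox1, a transcription factor of lymphatic vessels and liver (ENSMUSG00000010175; chromosome 1, 190118035 to 190170714), had 21.6, 17.3, 14.7 and 22.5 in DKO, against 941, 332, 492 and 484 in CDK19KO (log2 fold change -4.73 ± 0.32, adjusted p = 6.2e-08). VAV had 3.57, 8.02, 6.1 and 4.2, against 518, 848 and 533 in WT (-6.63). With CDK8KO against WT taken off, Prox1 had 2.64 (adjusted p = 0.0248), with 14.7 to 22.5 normalized counts in DKO and 2.19 to 4.35 in CDK8KO. That call was lost without DKO replicates 1 or 4 or without CDK19KO replicates 2, 3 or 4 or without any WT library (adjusted p = 0.0526 to 0.1). Sva, named after its values were seen, had 0 reads in all 4 CDK19KO libraries and in WT, and 32.4, 38.95, 42.1 and 35.97 in DKO. It was at least 11.99-fold higher in DKO, taking the mean floor of 3 reads a library, and VAV averaged 24.8.

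Lyve1, a hyaluronan receptor of lymphatic vessels and some macrophages, had 168, 223, 193 and 481 in DKO, against 52.4, 56.9, 62.7 and 76.9 in CDK19KO (log2 fold change 1.96 ± 0.31, adjusted p = 0.0018; 1.22 in VAV against WT). Chil5, a chitinase-like protein of myeloid cells, had 408, 468, 458 and 564 in DKO, against 122, 112, 135 and 141 in CDK19KO (log2 fold change 1.88 ± 0.21, adjusted p = 2.62e-05; 0.77 in VAV against WT). For both genes the DKO libraries were above those of every other genotype. Hif3a, a subunit of the hypoxia-inducible factors, had 35.7, 36.4, 27.4 and 34.5 in DKO, against 188, 231, 185 and 146 in CDK19KO (log2 fold change -2.44 ± 0.28, adjusted p = 4.85e-05; -1.02 in VAV against WT). Rnf152, a ubiquitin ligase of lysosomes, averaged 74.3 ± 34.8 in DKO and 5.38 ± 2.88 in CDK19KO (n = 4 each; log2 fold change 3.60 ± 0.68, adjusted p = 0.00761; 1.70 in VAV against WT). Adgrb1, an adhesion receptor, averaged 249 ± 117 in DKO and 22.1 ± 24.2 in CDK19KO (n = 4 each; log2 fold change 4.39 ± 1.07, adjusted p = 0.0382), lost without any DKO library or without CDK19KO replicates 2 or 4 (adjusted p = 0.0584 to 0.142).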

How the data were processed

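RNA-seq libraries of bone marrow were quantified with Salmon 1.4.0 against mm10 and handled with DESeq2, per the submitters' processing notes. The deposited table holds normalized counts, a signal for which the authors divided each library's counts by a size factor. All values were whole multiples of 1 library-specific step within 0.001 read (100%), so whole reads could be recovered for count tests. Genes with a mean of at least 10 over 19 libraries were tested with limma 3.58.1 (R 4.3.3) on log2(normalized count + 1), with all 5 genotypes in 1 model and Benjamini-Hochberg adjustment over all 13976 genes. edgeR 4.0.16, DESeq2 1.42.0 and the other alternatives are described in the closing section. Scripts were tested on simulated data. Coordinates come from GENCODE on GRCm38.

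Members and gene lists were chosen with earlier results of these data known. Genes named were those with the largest change among the genes that passed without overlap and had a mean of at least 50 in DKO or CDK19KO (12 a direction, or 5 among those set apart), the largest 5 a direction in each contrast without Cre, and up to 4 members of each list by smallest p. Predicted, immunoglobulin segment and sex-linked genes were left out. Any gene outside this rule is said to be so. The replicate numbers were not taken to pair the libraries.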

Additional observations from a re-analysis of the deposited data

Results flagged for a closer look

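In some groups of 4 libraries, 1 library stood apart by Dixon's test. Of 172 groups tested for 86 genes, 10 were picked out, and chance picks out about 1 in 20. Among DKO libraries, replicate 2 was high for Msmo1 (1788, others 1254 to 1345), Zbp1 (872, others 716 to 738) and Tgfbr1 (3440.0, others 2984 to 3059). DKO replicate 1 was high for H2bc24 (481, others 11.6 to 36.0) and low for Cd209a, a lectin of dendritic cells (25.7, others 60.0 to 62.9). Among CDK19KO libraries, replicate 1 was high for Pmaip1 (212, others 135 to 144), Adamdec1 (15.9, others 2.55 to 4.59) and the interferon gene Oasl2 (2463, others 1112 to 1318). CDK19KO replicate 3 was high for Hmox1 (7466, others 4799 to 4958) and CDK19KO replicate 4 for Mcpt8 (1085, others 715 to 773).

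For 10 genes named by the rule, out of the 21 that passed, the effect of adding floxed Cdk8 and Cre differed between marrow without and with Cdk19 in a test of the difference itself (limma, DKO minus CDK19KO less CDK8KO minus WT). On the log2 scale this difference was 3.39 for Lipg, 3.30 for Chit1, 3.14 for Perp, 2.64 for Prox1 and 2.34 for Acod1. It was -7.52 for H2bc24, -3.91 for Asprv1, -2.68 for H1f0, -2.38 for Cd163 and -2.37 for Fcnb.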

How the results depend on the processing

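Of the 79 genes named by rule that passed in DKO against CDK19KO, 32 passed under every alternative, 47 were lost under at least 1 and 0 changed sign. The 279 genes became 968 with the libraries of the 2 genotypes alone (52.6% of them higher, against 67.03%), 601 with DESeq2, 1251 with array weights (57.9% higher), 97 without both libraries that hold muscle transcripts and 128 with the erythroid level as covariate. Leaving out 1 library gave 119 to 227 genes, lowest without CDK19KO replicate 2. With VAV against WT taken off, 20 genes became 39 with only the groups of the contrast, 101 with DESeq2, 68 with array weights and 51 with the erythroid covariate, and 11 to 21 with 1 library left out (11 without WT replicate 3). With CDK8KO against WT taken off, 21 became 98 with DESeq2, 34 with array weights and 11 without the muscle libraries, and 10 to 21 with 1 library left out (10 without WT replicate 3, 12 without CDK19KO replicate 2). VAV against WT gave 320 genes with DESeq2 in place of 13, and CDK8KO against VAV 1 in place of 0. The 98 genes set apart became 6 if VAV against WT had to pass at an adjusted p under 0.05, and 39 to 207 with 1 library left out. The log2 difference of Cdk8 lay between -0.57 and -0.42 with 1 library left out and was -0.21 with the erythroid covariate. In limma Cdk8 passed with the libraries of the 2 genotypes alone and with array weights. The cause of these shifts was not tested.

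Deviations of same-numbered libraries correlated at 0.06, 0.11, 0.02 and 0.31 for numbers 1 to 4, the last being the 2 libraries that hold muscle transcripts. Not every pair exceeded 0.1, so the numbers were not taken as pairs and the replicate block is an alternative. It gave 263 genes, 243 of them shared, 13 with VAV against WT taken off and 14 with CDK8KO against WT taken off. Genes with few reads and effects smaller than the spread of 4 libraries were beyond this depth and number of libraries.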

Other observations

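Other lists held values not described above. The 10 MHC class II genes were all lower in DKO than in CDK19KO (list median -0.35), with 0 passing in limma, edgeR or DESeq2 and 1 at an unadjusted p under 0.05, and the median was -0.57 in VAV against WT. Of 25 genes of glycolysis and hypoxia, 0 passed in limma and edgeR and 1 in DESeq2, with 10 at an unadjusted p under 0.05 and a median of 0.28. Of 17 heat shock chaperones, Hsp90aa1 alone passed, lower in DKO, and the list median was -0.32. Its call was lost without any 1 of the DKO or CDK19KO libraries (adjusted p = 0.0576 to 0.152). The chaperone count was 0 without the libraries that hold muscle transcripts and 0 with the erythroid covariate. The 26 core Mediator genes had a median of -0.05, with 0 passing in limma, edgeR or DESeq2 and 0 at an unadjusted p under 0.05. Among dendritic cell genes, the chemokine receptor gene Ccr9 was higher and Cd209a lower. Ccr9 was lost without DKO replicates 2, 3 or 4 or without CDK19KO replicates 1, 2 or 3 (adjusted p = 0.0545 to 0.0991), and Cd209a without DKO replicate 1 or without CDK19KO replicates 1, 2 or 4 (adjusted p = 0.0603 to 0.0794). Both were lost without the libraries that hold muscle transcripts and with the erythroid level as covariate. Within 5 Mb of Cdk8, 0 of 77 tested genes passed in limma, and within 5 Mb of Cdk19, 1 of 45 did (Crybg1, which was set apart and is named after its values were seen). The share over all tested genes was 2.00%.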
